A study of Homo sapiens with 2 samples.

Results

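Oxidative phosphorylation is carried out by 5 protein complexes of the inner mitochondrial membrane, and the genes described here are those that encode their subunits in the nucleus. Members were the probe sets annotated with a single gene symbol that starts with NDUFA, NDUFB, NDUFC, NDUFS, NDUFV, UQCR, COX4I, COX5, COX6, COX7, COX8 or ATP5, or that equals SDHA, SDHB, SDHC, SDHD or CYC1. Complex I assembly factors (NDUFAF symbols) were left out. This took 83 genes on 158 probe sets, of 19775 genes that have a probe set of their own and 54613 probe sets other than controls. By prefix, 36 genes belong to complex I, 3 to complex II, 7 to complex III, 18 to complex IV and 19 to complex V. The prefixes also took 3 noncoding neighbours (NDUFB2-AS1, NDUFV1-DT and NDUFV2-AS1) and 2 pseudogenes (ATP5MC2P1 and COX6A1P1), which leaves 78 protein-coding genes. SDHB and UQCRFS1 were not analysed here.

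The study compared K562 cells that received a miR-34a mimic with K562 cells that received a control mimic whose sequence matches no human gene. K562 is a human erythroleukemia line that carries the BCR-ABL1 fusion and makes embryonic and fetal haemoglobins. In each group 3 µg of mimic was introduced by nucleofection, an electroporation method, total RNA was extracted 24 h later, and 1 Affymetrix expression array was hybridised. With 1 array per group there is no replicate, so no difference below has a test, and each is described by its size and by its spread over the probe sets of a gene. Fewer cells of a kind and less RNA per cell cannot be told apart in such bulk RNA.

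The complexes form the respiratory chain and the enzyme that uses its proton gradient. Complex I oxidises NADH, complex II oxidises succinate, and both pass electrons through coenzyme Q to complex III, cytochrome c and complex IV, which reduces oxygen. Complexes I, III and IV pump protons, and complex V, the ATP synthase, lets them flow back to make ATP. Most subunits are encoded in the nucleus and imported, while a small hydrophobic core of complexes I, III, IV and V is encoded by mitochondrial DNA. The nuclear genes are expressed in nearly all tissues, and their promoters are known to bind NRF1, the ETS factor GABPA, YY1 and the ERR receptors. miR-34a is a microRNA induced by p53. It pairs with target mRNAs mainly through its seed, bases 2 to 8 of the mature strand, which is in capitals in the RefSeq sequence here because it is the agent compared (GRCh38.p14, chr1:9151735-9151756, minus strand).
hsa-miR-34a-5p: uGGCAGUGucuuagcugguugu

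The promoters of the members are shown next because they share sequence features that the choice of genes did not use. RefSeq (GRCh38.p14) gave 82 promoters for 69 of the 83 member genes, set beside 35116 promoters of 27305 genes, each covering 250 bases before to 50 after the start. On either strand, GCGCATGC, the core of the NRF1 site, was in 14 member promoters (17.1%), against 3.05% of all promoters. CCGGAAG, the site of GABPA and other ETS factors, was in 20 (24.4%), against 10.3% of all. AAGATGG, the YY1 core, was in 18 (22%), against 5.84%. The ERR element AAGGTCA was in 13.4% of member promoters and 3.92% of all, and the GC box GGGCGG in 62.2% and 45.0%. The E-box CACGTG was in 11% of member promoters and 7.26% of all. By contrast the CCAAT box was in 34.1% and 34.6%, and TATAAA in 8.54% and 11.5%. G and C made up 59.5% of the bases in the member promoters and 57.5% in all promoters. A match of letters is a description and not a bound site, and promoters of 1 gene can overlap.

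Upstream stretches of 250 bases are given for 1 gene of each complex with at least 1 of the first 3 motifs. These were picked from the promoters of each complex with the most kinds of those motifs, so they are not typical. SDHA, which has none of them, is given too. All run 5′ to 3′ on the strand of the gene. Capitals mark NRF1, ETS and YY1 letters on either strand, and a longer capital run in SDHD holds the NRF1 core on both strands in overlap.
NDUFA5, chr7:123557819-123558068, minus strand: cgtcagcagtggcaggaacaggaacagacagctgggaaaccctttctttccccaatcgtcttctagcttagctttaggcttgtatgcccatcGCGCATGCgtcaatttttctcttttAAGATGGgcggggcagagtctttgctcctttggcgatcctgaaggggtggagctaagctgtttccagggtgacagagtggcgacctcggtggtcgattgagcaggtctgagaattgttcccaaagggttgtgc
SDHD, chr11:112086623-112086872, plus strand: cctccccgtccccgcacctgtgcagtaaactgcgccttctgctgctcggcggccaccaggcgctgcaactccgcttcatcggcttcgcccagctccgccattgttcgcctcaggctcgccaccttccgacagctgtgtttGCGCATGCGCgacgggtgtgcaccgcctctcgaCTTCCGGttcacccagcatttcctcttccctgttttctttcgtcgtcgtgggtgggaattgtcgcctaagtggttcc
SDHA, chr5:218070-218319, plus strand: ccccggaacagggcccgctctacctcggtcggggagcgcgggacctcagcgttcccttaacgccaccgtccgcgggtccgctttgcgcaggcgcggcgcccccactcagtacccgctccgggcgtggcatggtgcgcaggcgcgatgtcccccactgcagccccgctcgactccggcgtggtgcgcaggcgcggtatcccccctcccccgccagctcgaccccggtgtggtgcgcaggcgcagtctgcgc
UQCR11, chr19:1605463-1605712, minus strand: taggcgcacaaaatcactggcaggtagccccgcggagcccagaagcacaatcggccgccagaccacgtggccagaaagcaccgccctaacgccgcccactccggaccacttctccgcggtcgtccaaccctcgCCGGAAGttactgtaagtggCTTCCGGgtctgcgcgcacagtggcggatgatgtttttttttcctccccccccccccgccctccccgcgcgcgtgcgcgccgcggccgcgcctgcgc
COX5B, chr2:97645812-97646061, plus strand: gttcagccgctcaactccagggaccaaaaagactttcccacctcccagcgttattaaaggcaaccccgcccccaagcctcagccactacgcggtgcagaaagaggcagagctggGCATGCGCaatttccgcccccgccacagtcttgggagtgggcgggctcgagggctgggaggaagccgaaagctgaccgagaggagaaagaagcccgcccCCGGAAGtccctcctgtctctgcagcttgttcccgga
ATP5PF, chr21:25735055-25735304, minus strand: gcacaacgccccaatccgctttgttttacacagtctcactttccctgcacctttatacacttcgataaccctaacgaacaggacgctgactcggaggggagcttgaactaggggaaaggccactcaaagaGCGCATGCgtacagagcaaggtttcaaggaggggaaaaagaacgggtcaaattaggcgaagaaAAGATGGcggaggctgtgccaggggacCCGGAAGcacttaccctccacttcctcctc
In the printed ATP5PF window all 3 kinds stand, the NRF1 core starting at -120, the YY1 core at -57 and the ETS site at -30 from the transcription start. Upstream of a second ATP5PF start stand ETS sites at -180 and -8 and the YY1 core at -207, without the NRF1 core. UQCR11 has ETS sites at -117 and -97, and COX5B has the NRF1 core at -136 and an ETS site at -37. How these genes read on the arrays is given with their complexes.

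The arrays were alike in their general measures. The median signal over probe sets was 40.1 on the miR-34a array and 39.5 on the control array. The 18 hybridisation spike-in probe sets had log2 ratios of 0.014 ± 0.068 (mean and SD over these sets). Every ratio was centred by 0.0090, the median over expressed genes. The 3′ to 5′ signal ratio of GAPDH, a measure of RNA integrity, was 3.53 on the miR-34a array and 3.07 on the control array, and that of ACTB was 4.54 and 4.30. Its part in the results was not tested. Of 7 erythroid markers measured, 6 (HBE1, HBZ, GATA1, TFRC, LMO2 and KLF1) read above the highest bacterial control probe set (75.4) on both arrays, and KIT read 1.51 on the miR-34a array and 1 on the control array. The erythroid markers summed to 30444 on the miR-34a array and 25487 on the control array. Within that list HBZ read 7672 against 4258 and TFRC, which went the other way, 6309 against 6806. For other cell types, 0 of 3 T cell and 0 of 3 epithelial markers were above that control on both arrays, and so were 1 of 2 B cell (CD79A), 1 of 2 monocyte (LYZ), 1 of 3 stromal (COL1A1) and 2 of 3 endothelial markers (PECAM1 and VWF). Their summed signals were 65.6 on the miR-34a array against 57.8 on the control array for T cells and 8.36 against 4.61 for epithelium. Those of B cells were 407 against 372, of monocytes 587 against 538, of stroma 189 against 201 and of endothelium 289 against 318. The part of these markers in the results was not tested.

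The respiratory subunit genes read almost the same on both arrays. Signals are linear and in arbitrary units, and ratios were taken as log2 of the signal plus a pseudocount of 14.92. A gene counted as expressed when the mean level of a probe set reached the median of all probe sets (a signal of 39.0), and its brightest such probe set stands for it. Of the 83 genes, 78 passed the filter on dim probe sets, and in 53 of them (67.9%) the signal was higher with miR-34a, against 50% of the 12774 expressed genes, while 25 were lower. Their median log2 ratio, miR-34a over control, was 0.030, and the quartiles were -0.017 and 0.092. Over all expressed genes the median is 0 by centring, and the quartiles were -0.17 and 0.17. None of the 78 was at least 1.5-fold higher, where 3.28% of expressed genes were, and 1 (NDUFB2-AS1) was at least 1.5-fold lower, where 3.01% were. In either direction that is 1 gene, beside 6.29% of all expressed genes. At 2-fold none passed, where 0.595% of expressed genes were higher, 0.548% lower and 1.14% either. At a log2 ratio of 0.32 in size, 1 gene passed upward (NDUFV3), beside 12.2% of all expressed genes, and 1 downward (NDUFB2-AS1), beside 11.3%. Those 2 genes stand beside 23.5% of all in either direction. Without noncoding neighbours and pseudogenes, 74 expressed genes remained, with 53 higher, 21 lower, a median of 0.036 and log2 ratios between -0.31 and 0.33. The median of the whole set lay between 0.017 and 0.047 under 13 other ways of processing, above 0 in each.

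The members are mostly bright on these arrays, and bright probe sets vary less. Signals of 1000 or more on both arrays were read by 65 members and by 1674 expressed genes in all. Among these bright genes the interquartile range of log2 ratios was 0.094 in members and 0.22 in all genes. The median was 0.036 in members and -0.020 in all bright genes, and 48 bright members (73.8%) were higher with miR-34a, beside 44.1% of all bright genes. NDUFV3 was the only bright member past 0.32, where 169 of all bright genes (10.1%) were. Dimmer probe sets of the members, many of them second sets of bright genes, scattered more. The 47 expressed member probe sets with a signal under 1000 on either array ran from -0.71 to 0.62 with 24 higher, while the 84 bright ones ran from -0.21 to 0.33 with 61 higher.

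The differences of single members are of the size of the disagreement between probe sets. In the 33 members with 2 or more expressed probe sets the log2 ratio differed between sets of a gene by a pooled SD of 0.16, beside 0.24 over 5494 such genes in all. With only sets above the bacterial controls, the SD was 0.14 (25 members) and 0.19 (3648 genes). No member had probe sets that differed from 0 in opposite directions by more than 0.3 each.

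**Figure D1:**
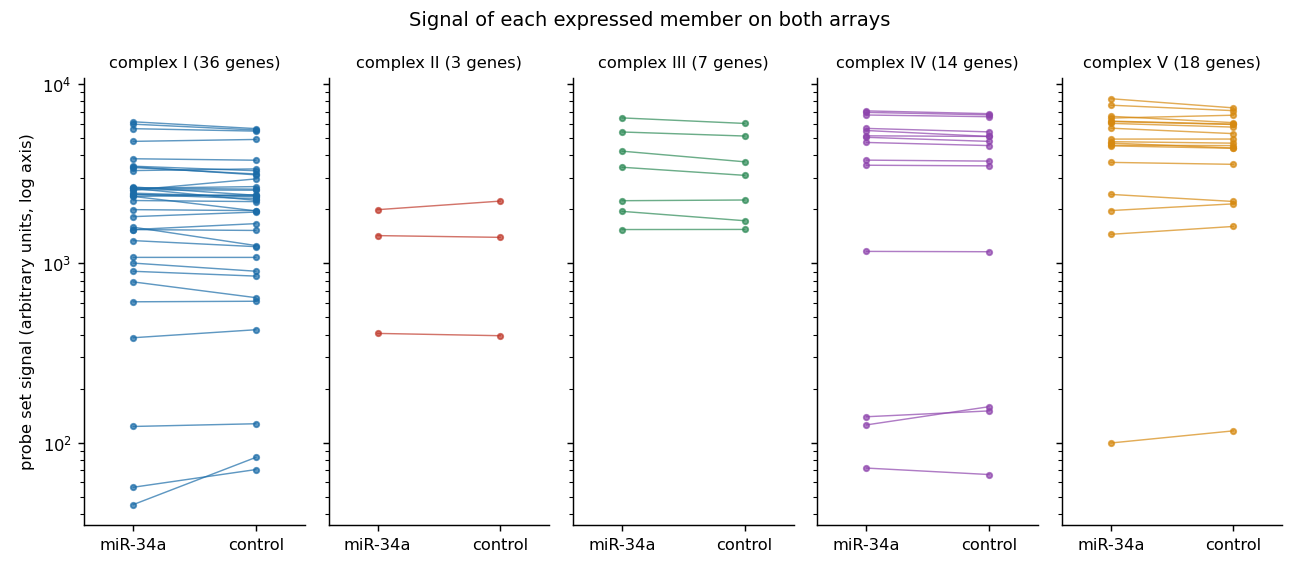
Signal of the brightest expressed probe set of each member gene (arbitrary units, log axis) on the miR-34a array (left in each panel) and the control array (right), 1 line per gene and 1 panel per complex. Most lines are nearly flat; the steepest is NDUFB2-AS1 in complex I, at 45.1 and 82.6.

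**Figure D2:**
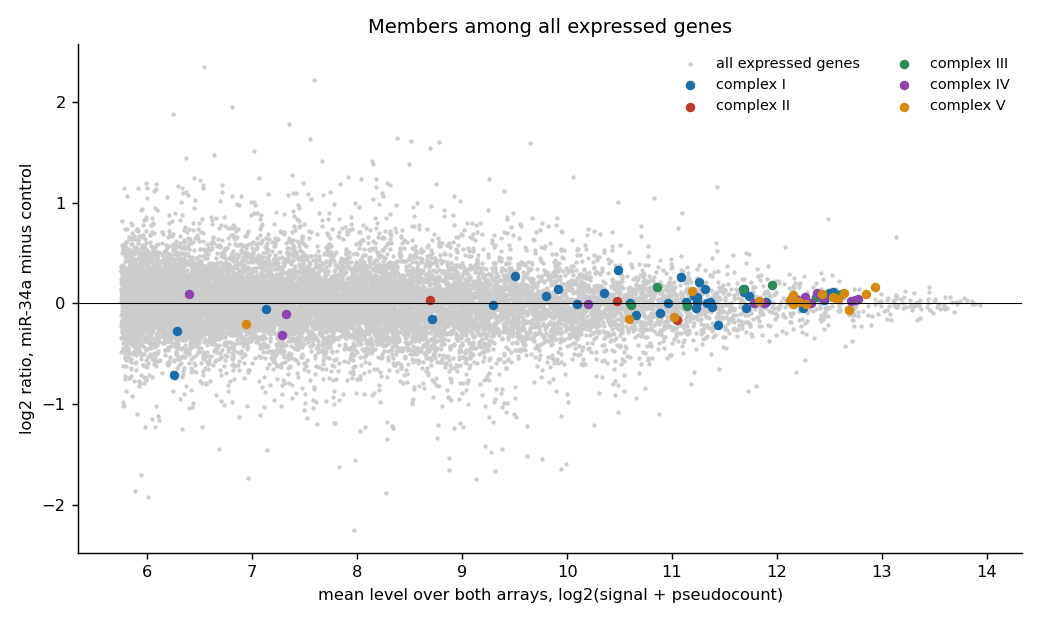
Log2 ratio of miR-34a over control (vertical) against the mean log2 level of both arrays (horizontal) for 12774 expressed genes, grey, and the 78 expressed members, coloured by complex. Most members lie at the bright end, where the grey cloud is narrow, and 65 of them read 1000 or more on both arrays.

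Complex I, the NADH dehydrogenase, had 23 of 36 expressed genes higher and 13 lower with miR-34a, with a median log2 ratio of 0.012. That median was 0.054 with the mean over probe sets and 0.065 with the most specific probe set class alone. The flavin and the iron-sulfur clusters lie in core subunits, though not every core subunit holds one. NDUFV1, which binds the flavin and oxidises NADH, read 2564 on the miR-34a array and 2957 on the control array, a log2 ratio of -0.21 and the lowest among the protein-coding genes of the complex. NDUFV2, its iron-sulfur partner, read 3420.3 on the miR-34a array and 3150.5 on the control array (0.11). These neighbours in the NADH-oxidising module stood on opposite sides of 0, and the difference was not tested. NDUFS1, the large iron-sulfur subunit of the same module, read 1003 on the miR-34a array and 904 on the control array (0.14). Its 4 expressed probe sets lay between 0.079 and 0.16, and the set at 0.079 was within the range of the bacterial controls. In the module that reduces coenzyme Q, NDUFS3 read 2574 on the miR-34a array and 2557 on the control array (0.00068). NDUFS7, which holds the last iron-sulfur cluster before coenzyme Q, read 1543 on the miR-34a array and 1665 on the control array (-0.12). The 5 core genes had a median of 0.00068, with 3 higher and 2 lower.

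Accessory subunits of complex I surround the core and are needed for its assembly and stability. Of 28 such genes, 20 were higher and 8 lower, with a median of 0.027. The 3 highest members of the complex were all accessory. NDUFV3, a small subunit of the NADH-oxidising module (chromosome 21), read 1591 on the miR-34a array and 1257 on the control array (0.33), and a second probe set read 229 against 217 (0.061). NDUFA3 (chromosome 19) read 788 on the miR-34a array and 643 on the control array (0.28) on its single probe set. NDUFA8, a cysteine-rich subunit on the intermembrane side (chromosome 9), read 2362 on the miR-34a array and 1961 on the control array (0.26). Beyond these, NDUFB5 of the membrane arm read 2619 on the miR-34a array and 2244 on the control array (0.21), and the accessory genes that follow stood at or under 0.14. At the other end NDUFB7, another cysteine-rich subunit, read 384 on the miR-34a array and 426 on the control array (-0.15). A second, dim NDUFB7 probe set read the opposite way, 70.1 against 40.1 (0.62), within the range of the bacterial controls. NDUFA5, whose promoter is printed above, read 1821 on the miR-34a array and 1931 on the control array (-0.093), while its dim second set read 54.5 against 38.0 (0.38). For both genes the bright set was lower with miR-34a and the dim set higher.

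The 3 noncoding neighbours were all lower, and they are dim. NDUFB2-AS1, an antisense transcript at NDUFB2, read 45.1 on the miR-34a array and 82.6 on the control array, a log2 ratio of -0.71 and the only member past 1.5-fold. Its signal on the miR-34a array lies within the range of the bacterial controls, and with 4 times the pseudocount the ratio was -0.45, under that size. NDUFV2-AS1 read 56.3 on the miR-34a array and 70.7 on the control array (-0.27), also within that range. NDUFV1-DT, divergent from NDUFV1, read 123 on the miR-34a array and 127 on the control array (-0.054). The protein-coding partner NDUFB2 read 3832 on the miR-34a array and 3760.0 on the control array (0.018).

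Complex II, succinate dehydrogenase, links the chain to the TCA cycle and is encoded by nuclear genes alone. SDHA, the flavoprotein that oxidises succinate, read 406 on the miR-34a array and 395 on the control array (0.032), on a probe set of the less specific _x_at class, and SDHA has close pseudogene copies. SDHC, a membrane anchor, read 1428 on the miR-34a array and 1396 on the control array on its brightest set (0.023). SDHD, the other anchor, read 1992 on the miR-34a array and 2223 on the control array (-0.17), the lowest of the complex. The median of the 3 was 0.023, but SDHC had 6 expressed probe sets, of which the other 5 were lower with miR-34a, down to -0.41. With the mean over probe sets in place of the brightest, the median of complex II was -0.16, with 2 of 3 genes lower.

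Complex III, the cytochrome bc1 complex, had the highest median of the 5, 0.093, with 5 of 7 genes higher and 2 lower. Its catalytic subunit CYC1, cytochrome c1, read 2235 on the miR-34a array and 2255 on the control array (-0.022). Of the large core proteins, UQCRC1 read 1949 on the miR-34a array and 1728 on the control array (0.16). UQCRC2 read 1543 on the miR-34a array and 1545 on the control array (-0.011). A second UQCRC2 set read 678 against 768 (-0.18), and the 3 expressed sets of UQCRC2 lay between -0.18 and -0.0054. The set at -0.0054 was within the range of the bacterial controls. Whether the core proteins differ was not tested. All 4 small subunits were higher, with a median of 0.12. UQCR11 read 4223 on the miR-34a array and 3685 on the control array (0.19), the highest of the complex. UQCR10 read 3435 on the miR-34a array and 3096 on the control array (0.14). UQCRQ, a subunit near the coenzyme Q site, read 6474 on the miR-34a array and 6031 on the control array (0.093). UQCRB, which helps form that site, read 5403 on the miR-34a array and 5130.1 on the control array (0.066), with all 3 of its sets higher. The rank of this complex rests on which probe set stands for a gene. The second, dimmer sets of UQCR11 (283 against 332, -0.23) and UQCR10 (66.6 against 76.5, -0.18) were lower with miR-34a. That of UQCR10 was within the range of the bacterial controls on the miR-34a array. With the mean over probe sets, the median of complex III was -0.012 and 4 of 7 genes were lower, and with probe sets of the most specific class alone it was -0.017, again with 4 lower.

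Complex IV, cytochrome c oxidase, has subunits with general and tissue-restricted isoforms, and they differed in how strongly they were detected. The 10 general isoforms were all higher with miR-34a on their brightest sets, by log2 ratios between 0.0027 and 0.10 with a median of 0.039. COX5B read 5506 on the miR-34a array and 5102 on the control array (0.10), the highest of the complex, and its 4 expressed sets lay between 0.031 and 0.31. COX5A read 5045 on the miR-34a array and 4789 on the control array (0.066), but its dimmer second set read 172 against 221 (-0.35). COX4I1, the general form of the subunit that binds regulatory nucleotides, read 6948 on the miR-34a array and 6734 on the control array (0.036). The remaining general isoforms had log2 ratios nearer 0 than COX5A: COX7B (0.055), COX6B1 (0.049), COX7C (0.042), COX6A1 (0.023), COX7A2 (0.0090), COX6C (0.0029) and COX8A (0.0027). The dimmest of 3 COX7C sets read 1663 against 1717 (-0.055). COX6C changed sign under 1 of 9 alternatives (down to -0.011). COX7A2L, which joins complexes III and IV into supercomplexes, read 1166 on the miR-34a array and 1160.5 on the control array (-0.0028).

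Tissue isoforms of complex IV were dim or under the filter. COX4I2, the isoform of lung and of low oxygen, read 126 on the miR-34a array and 159 on the control array (-0.31), the lowest protein-coding member of all complexes. COX7B2 read 139 on the miR-34a array and 150.2 on the control array (-0.11). The testis isoform COX6B2 read 72.1 on the miR-34a array and 66.3 on the control array (0.089), under the highest bacterial control on both arrays. Muscle isoforms COX6A2 (20.2 against 26.8) and COX7A1 (1 against 1.98), the testis isoform COX8C (7.18 against 6.12) and the pseudogene COX6A1P1 (7.49 against 3.27) did not pass the filter, and no ratio is given for them. Of the 18 genes with a complex IV prefix, 14 were thus compared, with a median of 0.029. The 10 general isoforms are the whole of what reads 1000 or more here, apart from COX7A2L.

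Complex V, the ATP synthase, had 12 of 18 expressed genes higher and 6 lower, with a median of 0.041. In its catalytic F1 head, ATP5F1A, the alpha subunit, read 4521 on the miR-34a array and 4381 on the control array (0.036). ATP5F1B, the beta subunit with the catalytic sites, read 6460.3 on the miR-34a array and 6702 on the control array (-0.062). ATP5F1C, the gamma subunit of the rotating stalk, read 4932 on the miR-34a array and 4935 on the control array (-0.010). Before centring, miR-34a minus control was 3.19% of the control signal for alpha, -3.61% for beta and -0.043% for gamma, so the large subunits were nearly equal on both arrays. Among the protein-coding genes, the small stalk subunits lay at the ends of the complex. ATP5F1E, epsilon, read 8283 on the miR-34a array and 7365 on the control array (0.16), the highest of complex V. Its second set read 47.7 against 36.8, within the range of the bacterial controls. ATP5F1D, delta, read 1452 on the miR-34a array and 1606 on the control array (-0.15), with its second set at -0.13. Epsilon and delta, which sit together at the foot of the stalk, thus stood on opposite sides of 0 on their bright probe sets.

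The membrane ring of subunit c turns as protons pass, and 3 genes, ATP5MC1, ATP5MC2 and ATP5MC3, encode the same mature protein with different import sequences. ATP5MC2 read 2424 on the miR-34a array and 2213 on the control array (0.12). ATP5MC3 read 7622 on the miR-34a array and 7107 on the control array (0.092), with all 3 of its sets higher. ATP5MC1 read 1969.5 on the miR-34a array and 2147 on the control array (-0.13). The ring genes thus did not share a direction on their brightest sets, and the differences between them were not tested. The pseudogene ATP5MC2P1 read 99.5 on the miR-34a array and 116 on the control array (-0.21), and whether its probe set also binds ATP5MC2 was not tested. The peripheral stalk, which holds the head still, had 3 of 4 genes higher (median 0.065), among them ATP5PF at 4686 against 4396 (0.083). All 4 expressed small membrane subunits were higher on their brightest sets (median 0.053), led by ATP5MK at 6609.8 against 6093 (0.11). ATP5MJ stood at 0.019 on its brightest set, but its second set, also bright, read 1261 against 1336 (-0.091). The lowest of 4 ATP5MG sets stood at -0.00052. The only ATP5MF set under that symbol alone did not pass the filter (1 against 1.99). ATP5IF1, which inhibits ATP hydrolysis by the enzyme, read 3657 on the miR-34a array and 3566 on the control array (0.027). A dimmer ATP5IF1 set read 171 against 283 (-0.69), the lowest ratio of any expressed probe set in complex V, and the remaining set stood at -0.029.

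**Figure D3:**
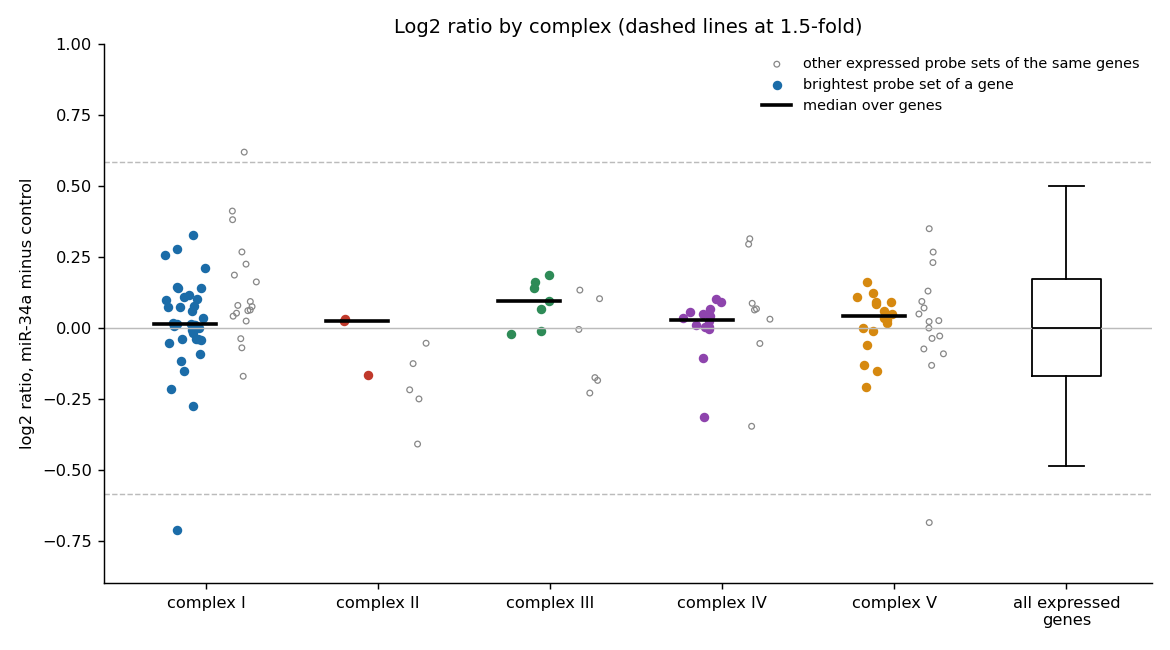
Log2 ratio of miR-34a over control for each expressed member by complex: filled points are the brightest probe set of a gene, open points the other expressed probe sets of the same genes, bars the median over genes. The box at the right holds all 12774 expressed genes (median, quartiles, whiskers at the 5th and 95th percentiles), and dashed lines mark 1.5-fold; 1 filled point, NDUFB2-AS1, lies outside them.

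Members with and without the promoter motifs are set side by side, and the differences between them were not tested. The 13 expressed genes with the NRF1 core in a promoter had a median log2 ratio of 0.060, and the 54 without it 0.034. With the ETS site the median was 0.046 over 19 genes, and without it 0.023 over 48. For the YY1 core the medians were 0.046 over 17 genes and 0.030 over 50. Each group without a motif also holds the 3 noncoding neighbours, all dim and lower with miR-34a, and no group with a motif does. Every one of these medians was above 0. Of the factors named for these sites, YY1 itself read 1439 on the miR-34a array and 2084 on the control array (-0.54), with its 5 expressed sets between -0.54 and -0.36. NRF1 read 205 on the miR-34a array and 207 on the control array (-0.017), with 5 expressed sets from -0.37 to 0.29. GABPA read 209.7 on the miR-34a array and 239 on the control array (-0.19), and its second set stood at 0.48. YY1 signal was thus lower with miR-34a on every expressed probe set, while the sets of NRF1 and of GABPA differed in direction.

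Genes that work beside the complexes were read from lists of their own. Of 9 expressed nuclear regulators of mitochondrial genes, 7 were lower and 2 higher, with a median of -0.19, and 1 was past 1.5-fold. That gene is MYC, a growth-promoting transcription factor, at 1066 on the miR-34a array and 1814 on the control array (-0.77). Next came YY1, given above. Highest in the list were the coactivator PPARGC1B (239.9 against 221, 0.10) and GABPB1, the partner of GABPA (386 against 358, 0.096), with 4 sets of PPARGC1B from -0.095 to 0.13. With the mean over probe sets, the median of this list was 0.0043, with 4 of 9 genes lower. Of 11 genes for transcription and maintenance of mitochondrial DNA, 9 were lower and 2 higher (median -0.12), none past 1.5-fold. POLG2, the accessory subunit of the mitochondrial DNA polymerase, read 197 on the miR-34a array and 284 on the control array (-0.51), and TWNK, the replicative helicase, 202 on the miR-34a array and 285 on the control array (-0.48). TFAM, which packages the DNA, read 1633 on the miR-34a array and 2133 on the control array (-0.39). TFB1M (0.053) and the RNA polymerase POLRMT (0.0073) were the 2 genes above 0, and a second set of TFB1M stood at -0.040.

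Mitochondrial ribosomal proteins, which translate the subunits encoded by mitochondrial DNA, had 51 of 76 genes lower (67.1%, beside 50% of all expressed genes) and a median of -0.048. Many of them read 1000 or more. Of all genes that bright on both arrays, 55.9% were lower, with a median of -0.020. The MRPL prefix also took the noncoding MRPL20-AS1 (-0.11), and without it 50 of 75 were lower, with a median of -0.048. Lowest was MRPL16, at 1039 on the miR-34a array and 1807 on the control array (-0.80). Next came MRPL10, at 228 on the miR-34a array and 385 on the control array (-0.73). These were the 2 genes of the list past 1.5-fold, beside 6.29% of all expressed genes. Highest were MRPS10 (1559.9 against 1135, 0.45) and MRPL17 (209 against 155, 0.39). Among 21 genes of the import channels, 13 were lower (median -0.055), from TIMM50 (-0.41) and TIMM13 (-0.35) up to TIMM17B (0.072) and TIMM22 (0.085), with 3 sets of TIMM22 from -0.22 to 0.085 and both sets of TIMM50 from -1.22 to -0.41. Thus these lists had medians below 0. The median of the member set, encoded in the nucleus, was 0.030. That of the 7 genes encoded by mitochondrial DNA was 0.066, with 2 of them lower. A difference between lists was not tested.

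Assembly factors were spread more widely than the subunits. SDs of log2 ratios were 0.19, 0.17 and 0.33 for the lists of complex I, complex IV and the rest. The SD was 0.14 for the 78 members, 0.11 for the 74 protein-coding ones and 0.31 for all expressed genes. Most assembly factors read under 1000, unlike most members, and dimmer probe sets scatter more. The part of signal level in this spread was not tested. Complex I assembly factors had 5 of 8 lower (median -0.15), with NDUFAF2 at 523 against 677 (-0.37) and NDUFAF4 at 1134 against 1368 (-0.28) lowest. NDUFAF7 (0.19) and NDUFAF1 (0.12) were highest, but the 3 expressed sets of NDUFAF7 ran from -1.02 to 0.19. For complex IV assembly and copper delivery, 13 of 23 were lower (median -0.043), with COA7 (-0.38) and COA1 (-0.31) at the bottom and COX19 (0.25) and SURF1 (0.17) at the top. Apart from COA7, probe sets of these genes disagreed in direction, running from -0.31 to 0.26 for COA1, -0.22 to 0.25 for COX19 and -0.069 to 0.17 for SURF1, and COX19 read 65.7 against 52.7, within the range of the bacterial controls. Factors for complexes II, III and V were even, 7 lower and 7 higher (median -0.0032, which turned positive under 3 of 9 alternatives, up to 0.032), but wide. TTC19, a complex III factor, read 397 on the miR-34a array and 675 on the control array (-0.75), past 1.5-fold, and UQCC3, another, 348 on the miR-34a array and 524 on the control array (-0.58). ATPAF1 and ATPAF2, chaperones of the F1 subunits, were highest at 219 against 153 (0.47) and 121 against 93.9 (0.32), while a second set of ATPAF1 stood at -0.17.

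Electron carriers and coenzyme Q synthesis had a median above 0, at 0.10, with 12 of 17 genes higher and none past 1.5-fold. CYCS, cytochrome c, read 6806 on the miR-34a array and 7158 on the control array (-0.082). Its 3 sets ran from -0.68 to -0.065. Of the other carriers, ETFA (0.13), ETFB (0.40) and ETFDH (0.082) were higher. COQ6, a hydroxylase of the pathway, read 63.8 on the miR-34a array and 42.7 on the control array (0.44), within the range of the bacterial controls, and COQ10B, a coenzyme Q binding protein, 437 on the miR-34a array and 321 on the control array (0.42). Lowest were PDSS1, which makes the side chain (493 against 636, -0.37), and COQ10A (143 against 177, -0.29). The TCA cycle was even, with 7 of 14 lower (median -0.022), from OGDH (-0.35) and IDH3A (-0.31) to PDHB (0.15) and IDH3G (0.35), with 3 sets of IDH3A from -0.60 to 0.19. Carriers and channels for ADP exchange had 5 of 6 lower (median -0.070), from VDAC2 (-0.19) and VDAC1 (-0.095) to SLC25A3 (-0.016) and VDAC3 (0.11).

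Glycolysis, which makes ATP outside mitochondria, had 12 of 17 genes lower (median -0.11). HK2, which phosphorylates glucose on entry, read 267 on the miR-34a array and 429 on the control array (-0.66), the only gene of the list past 1.5-fold. LDHA, which turns pyruvate into lactate, read 4048 on the miR-34a array and 5956 on the control array (-0.56), and PKM, the pyruvate kinase, 1629 on the miR-34a array and 2363 on the control array (-0.54). PFKP (1028 against 822, 0.31) and PFKL (614 against 543, 0.16), both phosphofructokinases, were highest, and a second set of PFKP stood at -0.073. On their brightest sets HK2, LDHA and PKM, the 3 lowest of the 17, each stood below the lowest protein-coding respiratory subunit, COX4I2 at -0.31. This does not hold over all expressed sets. The 3 sets of HK2 ran from -0.66 to -0.31, and dimmer subunit sets stood at -0.69 (ATP5IF1), -0.41 (SDHC) and -0.35 (COX5A).

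**Figure D4:**
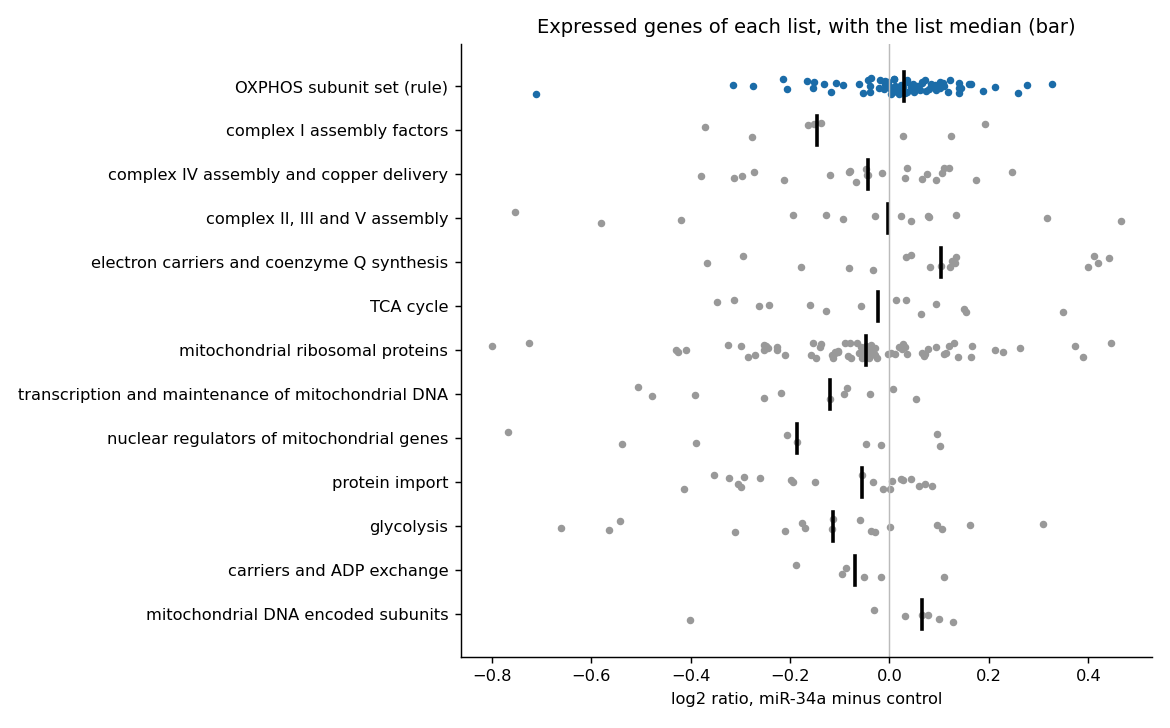
Log2 ratio of miR-34a over control (horizontal) for each expressed gene of the respiratory subunit set (top row, blue) and of 12 other mitochondrial or energy lists (grey), with the list median as a bar. The subunit set is tightly grouped around its median of 0.030, while 10 of the grey lists have medians below 0, of which those of complex II, III and V assembly and of the nuclear regulators change sign under some alternatives.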

How the data were processed

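Total RNA of K562 cells was labelled with biotin and read on 1 Affymetrix array per group, per the labels' protocols. The authors deposited linear signal intensity values, 1 per probe set, and for these arrays the software, background correction and scaling are not stated in the labels used here. Gene symbols came from the platform annotation of the value table: 41091 probe sets carried 1 symbol, 1801 several and 11721 none, and only the first were used. From the deposited intensities log2(signal + 14.92) was taken, where 14.92 is the 25th percentile over both arrays, so ratios of dim probe sets are understated. Genes were kept and represented as described above (12774 expressed genes), ratios were miR-34a minus control and centred on their median over expressed genes, and counts used sizes of 1.5-fold, 2-fold and a log2 ratio of 0.32. The script was tested on simulated data. Calls of a change are past a size, since 1 array per group allows no test.

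The members and lists were chosen with earlier results of these data known. Genes named are the 3 highest and 3 lowest of each complex, members past 1.5-fold, isoform pairs, catalytic and core subunits, ATP5IF1, and the 2 highest and 2 lowest of each other list. TFAM, PKM, NRF1, GABPA, NDUFB5, NDUFB7, NDUFA5, NDUFB2, NDUFV1-DT, UQCRQ, UQCRB, COX7C, COX6C, ATP5PF, ATP5MJ and ATP5MG were named in addition after their values were seen. So were MRPL20-AS1, CYCS, ETFA, ETFB, ETFDH and the mitochondrial DNA and shared-symbol probe sets. A planned comparison of isoform proteins was not run. Alternatives varied the pseudocount, filter, centring, normalization (quantile or loess, span 0.3), probe set choice, size and membership. Sequences are RefSeq's for GRCh38.p14, and motifs were searched on both strands. Computation used Python 3.11.15 with NumPy 2.4.6, pandas 2.3.3, statsmodels 0.14.6 and matplotlib 3.10.9.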

Additional observations from a re-analysis of the deposited data

How the results depend on the processing

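The median log2 ratio kept its sign under all 13 alternatives for the whole subunit set (range 0.017 to 0.047), complex I (0.011 to 0.065), complex IV (0.011 to 0.052) and complex V (0.035 to 0.096), and changed it for complex II under 3 and for complex III under 2. Complex II, III and V assembly changed sign under 3 of 9, to at most 0.032. With the mean over all expressed probe sets in place of the brightest, the medians were 0.054 for complex I and -0.16 for complex II (2 of 3 genes lower). They were -0.012 for complex III (4 of 7 lower) and 0.0043 for the nuclear regulators (4 of 9 lower). In that setting 1 of 21 import genes passed 1.5-fold, beside 5.17% of all genes. Without the probe set classes _s_at, _x_at and _a_at, 59 members had an expressed probe set and 3 were past 1.5-fold, beside 6.54% of all genes in that setting, 2 in complex I (NDUFB2-AS1, and NDUFB7 through its dim set) and 1 in complex V (ATP5IF1 through its dim set). Medians were then 0.065 for complex I, -0.28 for complex II (2 of 2 lower), -0.017 for complex III (4 of 7 lower), -0.088 for complex II, III and V assembly, -0.13 for the TCA cycle, -0.23 for mitochondrial DNA maintenance and -0.17 for import. In the same setting the genes lower numbered 3 of 5 complex I assembly factors, 3 of 13 in coenzyme Q synthesis, 28 of 42 ribosomal proteins, 5 of 7 in glycolysis and 2 of 3 in ADP exchange, and past 1.5-fold were 1 ribosomal protein, 0 regulators and 1 import gene. Fewer genes have such a probe set, 9608 in all.

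Other settings moved counts of a few genes. No member was past 1.5-fold with 4 times the pseudocount, with a stricter filter (75th percentile), without noncoding neighbours and pseudogenes, above the highest bacterial control on both arrays, or at 1000 or more on both arrays, each giving 0 for the whole set and 0 for complex I. The last 3 settings were chosen after the data were seen. Of all genes, 3.34% were past 1.5-fold with 4 times the pseudocount and 6.01% with the stricter filter. Above the highest bacterial control the share was 5.57%, and at 1000 or more it was only 1.85%. NDUFB2-AS1 had a log2 ratio of -0.45 with 4 times the pseudocount, where it no longer passed. At 1000 or more, 8 of 28 complex I genes and 1 of 11 complex IV genes were lower. With no filter 5 of 18 complex IV genes were lower, and 1 of 24 complex IV assembly genes passed 1.5-fold, beside 10.2% of all genes. The stricter filter left 3 of 17 complex V genes lower. Quantile normalization and loess each gave 1 lower gene of 7 in complex III, and quantile normalization gave -0.017 for the ribosomal protein median. The pseudocount divided by 4 gave 2 of 14 complex II, III and V assembly genes past 1.5-fold, beside 8.12% of all genes. At 2-fold 0 genes passed in the whole set, complex I, complex II, III and V assembly, ribosomal proteins, regulators and glycolysis, beside 1.14% of all expressed genes. At a log2 ratio of 0.32 in size 23.5% of all expressed genes passed. Beside that share the counts were 2 of 78 for the whole set and 2 of 36 for complex I. They were 1 of 8 for complex I assembly, 1 of 23 for complex IV assembly and 4 of 14 for complex II, III and V assembly. Coenzyme Q synthesis had 5 of 17, the TCA cycle 2 of 14 and ribosomal proteins 9 of 76. Mitochondrial DNA maintenance had 3 of 11, regulators 3 of 9, import 3 of 21 and glycolysis 3 of 17. Except where noted here the cause was not tested.

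No paired analysis was possible because each group has 1 array. The same reason leaves no replicate to leave out, so a difference between these arrays holds for these arrays alone. Log2 ratios of dim probe sets are shrunk by the pseudocount and scatter widely, and those near the bacterial controls cannot be told from background. No detection call was used, and precision is limited by there being 1 array per group.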

Other observations

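Subunits encoded by mitochondrial DNA are not members but belong to the same complexes, and they were added after the data were seen. COX1 read 9983 on the miR-34a array and 9074 on the control array (log2 ratio 0.13), and both ND4 probe sets were higher with miR-34a (0.099 and 0.10). COX3 stood at 0.078, both COX2 sets at 0.066 and 0.031, and the ATP6 sets at 0.031 and 0.12. ND2 read 8901 on the miR-34a array and 9038 on the control array (-0.031). ND6, whose mRNA is transcribed from the opposite strand of mitochondrial DNA to the other subunit mRNAs, read 2167 on the miR-34a array and 2849 on the control array (-0.40) on its single probe set. It was the only one of these 7 genes past a log2 ratio of 0.32 in size. COXFA4, the current symbol of the complex IV subunit long named NDUFA4, is outside the prefix rule and read 4837 on the miR-34a array and 4262 on the control array (0.17), while COXFA4L2 (34 against 21.2) and COXFA4L3 (16.4 against 20.1) did not pass the filter.

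Probe sets that carry a subunit symbol beside another were not members, since their reading cannot be given to 1 gene. The set annotated to ATP5MF and ARMC2-AS1 read 5606 on the miR-34a array and 5010.3 on the control array (0.15), and that of UQCRH and UQCRHL 8994 on the miR-34a array and 8432 on the control array (0.084). The set of NDUFS5 and RPL10 read 6683 on the miR-34a array and 6500.4 on the control array (0.031). The 3 sets of NDUFS8, a complex I core subunit, which also name microRNA genes, were at 0.13, 0.037 and 0.025. The 2 sets of NDUFC2 and its readthrough transcript were lower, the bright one at 4965 against 5257 (-0.091) and the dim one at 101 against 137 (-0.41). A set shared by NDUFS3 and PTPMT1 stood at -0.037, and one shared by SDHA and its pseudogenes at -0.14.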
